A study of Homo sapiens with 45 samples.

Results

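The genes described here had higher RNA levels after 6 h of BRM014 in each of 4 human T-ALL (T cell acute lymphoblastic leukaemia) lines. They were chosen by their 6 h values: the mean log2(TPM + 1) of 3 BRM014 libraries had to exceed that of 3 DMSO libraries by at least 0.7 in every line, and each line's BRM014 mean had to reach 1 TPM. TPM is a level scaled to gene length and to the library's total. TRIB1 and histone genes were to be left out, and none of them met the thresholds. The rule kept 92 of 38557 genes. Their 6 h values are therefore a description and carry no test; the tests come from other Jurkat libraries.

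Poly(A) RNA was sequenced in 45 libraries, 3 for each of 15 groups. Cells of the lines Jurkat, TALL-1, KOPT-K1 and CCRF-CEM had 1 μM BRM014 or 0.01% DMSO for 6 h, and Jurkat cells also had 1 μM BRM014 or 0.01% DMSO for 8 d. Cas9-expressing Jurkat cells were transduced with guides named gSMARCA4_A2, gSMARCA4, gARID1A_1B, gARID1A or gAAVS1, selected with puromycin for 4 d and collected on day 10; A2 was read as SMARCA2, 1B as ARID1B, and gAAVS1, which aims at a safe-harbour site, served as the control. Each guide group is a transduced population, and the labels give no editing rate. Jurkat RNA came through a Maxwell extraction and a kit that does not keep strand, whereas RNA of the other lines came through RNeasy columns and a directional kit. Line and preparation therefore cannot be told apart between Jurkat and the rest. Antisense or overlapping genes share reads in Jurkat libraries. The settings of read counting are not given, so such genes may share reads in the other lines too.

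BAF complexes are nucleosome remodellers that move or evict nucleosomes with the ATPase SMARCA4 or its paralogue SMARCA2. The canonical form, cBAF, carries ARID1A or ARID1B, PBAF carries ARID2, and the non-canonical form, ncBAF, carries BICRA or BICRAL. BRM014 is an allosteric inhibitor of both ATPases and so acts on all these forms. BAF is best known for keeping enhancers open. Thymocytes and T-ALL cells depend on such enhancers for T lineage genes. In bulk RNA, fewer cells of a type and less RNA per cell cannot be told apart.

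Reads counted in genes were recovered from the deposited TPM. They summed to between 29674228 and 47932949 in Jurkat libraries and to between 19717414 and 27037622 in libraries of the other lines. Reads outside genes are left out of these sums, and a read counted for overlapping entries enters more than once. The share of mitochondrially encoded genes was 20.0 to 24.9% in Jurkat libraries and 4.99 to 8.04% elsewhere. At 6 h the 9 T cell markers summed to between 1459 and 4098 TPM, and all 9 reached 1 TPM in each group except CCRF-CEM with BRM014, where 8 did. None of the B cell or myeloid markers reached 1 TPM in any group. Of 4 erythroid markers, HBA1 averaged 1.64 TPM with BRM014 and 1.84 TPM with DMSO in Jurkat, and none reached 1 TPM in the other lines. The 6 epithelial and fibroblast markers summed to at most 9.85 TPM; in TALL-1 they summed to 0.445 to 0.554 TPM with BRM014, against 7.55 to 9.05 TPM with DMSO. The guides lowered SMARCA4 RNA by a log2 difference of -0.95 in gSMARCA4_A2 and -1.12 in gSMARCA4, and ARID1B RNA by -0.88 in gARID1A_1B. SMARCA2 RNA differed by 0.04 in gSMARCA4_A2 (adjusted p = 0.669) and ARID1A RNA by 0.10 in gARID1A_1B (adjusted p = 0.0965) and -0.18 in gARID1A (adjusted p = 0.00734; limma with Benjamini-Hochberg adjustment); a guide can disrupt a protein and leave its RNA level. Some libraries stood apart from their own group. Replicate 3 of TALL-1 with DMSO differed from the other two by 47.2 and 48.0 times the sampling noise (chi-square per degree of freedom), and those differed from each other by 3.43. Replicate 3 of CCRF-CEM differed from the other two by 27.0 and 38.9 with BRM014 and by 21.9 and 29.6 with DMSO, where the others differed by 5.23 and 5.03. In Jurkat at 8 d, DMSO replicate 1 differed from the other two by 20.0 and 29.8, and those differed by 7.91. Without the TALL-1 library 95 genes met the rule, the 92 members among them, and without replicate 3 of both CCRF-CEM groups 93 did, 91 of them members. Without the 8 d library 81 members were higher and 0 lower at 8 d (limma), against 83 and 2 with it. The labels call the libraries biological replicates without naming separate cultures, and p-values measure the spread between them.

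The 92 genes were 68 protein-coding genes, 17 long non-coding RNAs, 4 transcribed pseudogenes and 3 microRNA entries. They lay on 22 chromosomes in 83 loci. In 9 loci a pair of members sat within 5000 bases of each other or overlapped: PIK3R3 with its readthrough LOC110117498-PIK3R3, FPGT with FPGT-TNNI3K, ATP6V0A1 with MIR5010, CFLAR with CFLAR-AS1, ZNF341 with ZNF341-AS1, SYP with SYP-AS1, NEIL2 with LOC105379243, FANCC with LOC107987102, and ARHGAP27P2 with LOC105371870. Values within such a pair are not independent of each other. Entries of the readthrough and microRNA kind hold reads that cannot be told apart from those of the gene that covers them. All 92 matched a RefSeq gene of GRCh38.p14, 84 by symbol and the rest by a synonym.

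Promoters of 71 members were in the RefSeq table, giving 70 distinct windows of 300 bases, from 250 bases before the listed start to 50 after it. The 250 bases before the start of 6 members are printed here because these genes recur in the results: CCDC121, SYT11, BICRAL and FPGT each start close to a gene on the other strand, CD38 had the fewest CpG of the 6, and SYP the most. Capitals mark matches to the 8 motifs searched on both strands: TATAAA as the TATA-type core element, the box named after its letters CCAAT, the GC box as GGGCGG, the E-box as CACGTG, the AP-1 element as TGANTCA, the cAMP response element as TGACGTCA, the ETS element as CCGGAAG and the RUNX element as TGTGGT, each counted on its own; none of these letter strings contains another. All runs read 5′ to 3′ on the gene's own strand in GRCh38.p14. CCDC121 lies on the minus strand at chr2:27629013-27629262, SYT11 on the plus strand at chr1:155859317-155859566, BICRAL on the plus strand at chr6:42746737-42746986, FPGT on the plus strand at chr1:74197992-74198241, CD38 on the plus strand at chr4:15778078-15778327 and SYP on the minus strand at chrX:49200194-49200443. The BICRAL run lies inside the RefSeq gene span, chr6:42746339-42868556, and so precedes a start within the gene. The other runs end at the boundary of their gene.
CCDC121: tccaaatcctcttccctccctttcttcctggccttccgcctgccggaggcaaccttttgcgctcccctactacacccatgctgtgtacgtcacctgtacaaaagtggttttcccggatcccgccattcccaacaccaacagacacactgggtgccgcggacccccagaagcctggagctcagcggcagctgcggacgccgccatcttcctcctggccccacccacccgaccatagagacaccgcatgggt
SYT11: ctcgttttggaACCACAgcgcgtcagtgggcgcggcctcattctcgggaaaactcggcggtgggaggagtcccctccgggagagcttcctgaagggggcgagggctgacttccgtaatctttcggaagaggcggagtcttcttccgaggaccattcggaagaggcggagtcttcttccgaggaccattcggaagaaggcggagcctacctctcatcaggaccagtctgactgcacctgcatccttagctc
BICRAL: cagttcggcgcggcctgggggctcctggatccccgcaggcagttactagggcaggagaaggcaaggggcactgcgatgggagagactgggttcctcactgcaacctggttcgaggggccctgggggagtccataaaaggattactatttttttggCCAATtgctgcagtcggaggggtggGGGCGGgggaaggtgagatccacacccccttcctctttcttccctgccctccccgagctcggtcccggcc
FPGT: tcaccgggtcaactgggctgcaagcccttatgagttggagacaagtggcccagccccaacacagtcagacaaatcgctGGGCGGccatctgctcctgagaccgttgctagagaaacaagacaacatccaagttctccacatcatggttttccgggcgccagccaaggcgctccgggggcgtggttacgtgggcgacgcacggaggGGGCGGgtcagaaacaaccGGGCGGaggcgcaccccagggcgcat
CD38: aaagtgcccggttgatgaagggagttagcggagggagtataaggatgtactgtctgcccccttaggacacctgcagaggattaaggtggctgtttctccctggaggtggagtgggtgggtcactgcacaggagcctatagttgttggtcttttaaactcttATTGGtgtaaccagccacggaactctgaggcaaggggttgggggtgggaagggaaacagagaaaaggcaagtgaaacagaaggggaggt
SYP: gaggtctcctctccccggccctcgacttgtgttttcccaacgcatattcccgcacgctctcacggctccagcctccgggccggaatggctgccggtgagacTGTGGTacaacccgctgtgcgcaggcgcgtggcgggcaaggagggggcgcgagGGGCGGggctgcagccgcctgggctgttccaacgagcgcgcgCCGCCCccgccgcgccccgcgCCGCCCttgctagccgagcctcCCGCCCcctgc

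None of the 8 motifs occurred in the CCDC121 run, SYT11 held a RUNX match, BICRAL a CCAAT box and a GC box, FPGT 3 GC boxes, CD38 a CCAAT box, and SYP 4 GC boxes with a RUNX match. The CD38 run had 3 CpG and 52.4% G+C, and the SYP run had 31 CpG and 74% G+C. Across the 70 distinct windows the median G+C was 65.8%, against 64.7% over the promoters of 11874 genes tested in Jurkat, and the median CpG observed over expected was 0.84, against 0.82. A GC box occurred in 54.3% of member windows and 66.4% of all windows, and a CCAAT box in 34.3% and 36.7%. A TATA box occurred in 1.43% and 6.16%, an E-box in 7.14% and 10.1%, an AP-1 match in 1.43% and 4.71%, and a cAMP response element in 5.71% and 3.15%. ETS matches occurred in 17.1% of member windows and 18.1% of all windows, and RUNX matches in 8.57% and 9.87%. These shares are descriptions of letters in a window, without a test.

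At 6 h the median log2 difference of the members was 0.97 in Jurkat, 1.27 in CCRF-CEM, 1.08 in KOPT-K1 and 1.22 in TALL-1, and over all genes of at least 1 TPM it was 0.05, 0.08, 0.06 and 0.08. Member medians in TPM were 13.5 with BRM014 against 6.61 with DMSO in Jurkat, 11.9 against 3.63 in CCRF-CEM, 11.6 against 3.91 in KOPT-K1, and 15.4 against 5.13 in TALL-1. All 3 BRM014 libraries lay above all 3 DMSO libraries for each member in each line, and these are the values that chose the members. Of genes of at least 1 TPM with BRM014, 33.4% did so in Jurkat, 33% in CCRF-CEM, 34.9% in KOPT-K1 and 37.7% in TALL-1. A difference of at least 0.7 was met by 2.63% of the genes in Jurkat, 6.41% in CCRF-CEM, 4.79% in KOPT-K1 and 6.91% in TALL-1 among genes of at least 1 TPM with BRM014, and by 0.77% in all 4 lines (92 of 11948). These percentages follow from the rule and are given as background to it. Jurkat set the limit most often: the smallest of the 4 differences was the Jurkat one for 43 members, the KOPT-K1 one for 24, the TALL-1 one for 14 and the CCRF-CEM one for 11. The largest was in CCRF-CEM for 39 members, TALL-1 for 32, KOPT-K1 for 15 and Jurkat for 6. Nearest the threshold, ZNF672, PMS2P7 and TAX1BP3 were inside with smallest differences of 0.71, 0.70 and 0.70, and LOC105376866, MTFR1L and FLJ32255 were outside with 0.6995, 0.699 and 0.697.

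**Figure D1:**
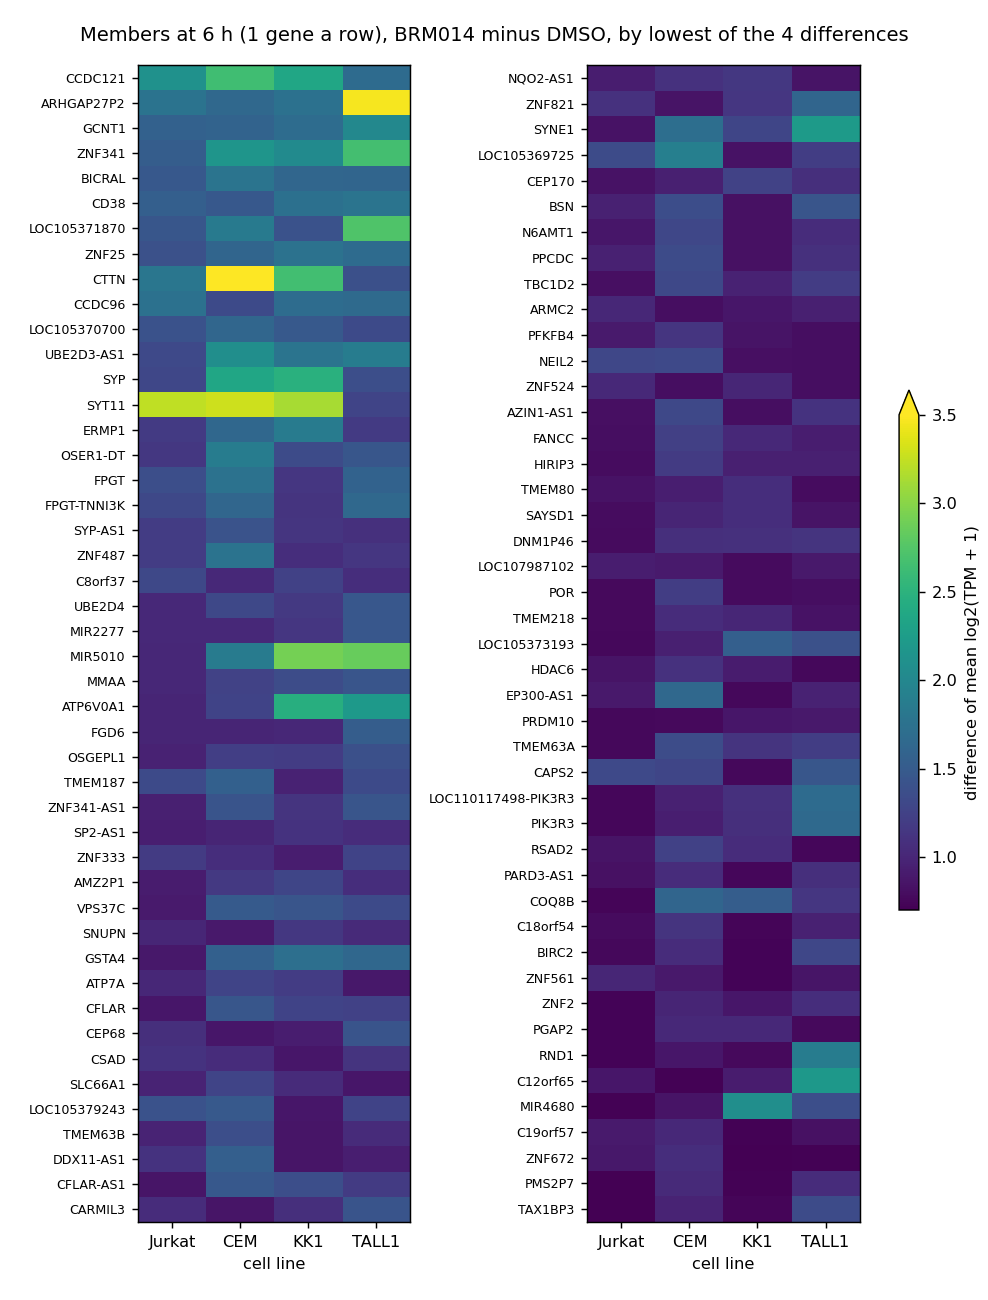
Log2(TPM + 1) differences, BRM014 minus DMSO at 6 h, of 91 of the 92 members (rows, ordered by the smallest of their 4 differences) in 4 lines (columns), with 3 libraries in each group. Most cells lie between 0.7 and 2, and the brightest are SYT11 in Jurkat, CCRF-CEM (CEM) and KOPT-K1 (KK1), CTTN in CEM at 4.31, beyond the colour scale, and ARHGAP27P2 in TALL-1 (TALL1).

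CCDC121, a coiled-coil protein of unassigned function at chr2:27625638-27629012, had the highest smallest difference, 1.68 in TALL-1. In Jurkat it had 13.0, 13.1 and 13.5 TPM with BRM014, against 2.15, 2.31 and 2.37 TPM with DMSO. KOPT-K1 cells had 5.92, 6.44 and 7.29 TPM with BRM014, against 0.548, 0.305 and 0.588 TPM with DMSO. The gene was under 1 TPM in KOPT-K1 controls and reached a like level with BRM014 in Jurkat, CCRF-CEM and TALL-1, where the library values lay between 11.7 and 14.4 TPM.

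Vesicle and membrane genes included some of the largest differences. SYT11, a synaptotagmin of vesicle membranes that does not bind calcium (chr1:155859567-155885199), had 19.1, 21.4 and 19.9 TPM with BRM014, against 1.06, 1.42 and 1.27 TPM with DMSO, in Jurkat. CCRF-CEM cells had 13.7, 9.85 and 10.4 TPM with BRM014, against 0.265, 0.403 and 0.0989 TPM with DMSO. TALL-1 cells stood apart: they had 37.9, 39.2 and 36.9 TPM with BRM014, against 15.6, 14.5 and 15.3 TPM with DMSO, so the gene was already well expressed there and its difference was 1.27, beside 3.23, 3.29 and 3.13 in Jurkat, CCRF-CEM and KOPT-K1. SYP, which encodes the synaptic vesicle protein synaptophysin (chrX:49187815-49200193), also had its highest DMSO level in TALL-1. It had 13.9, 12.9 and 15.2 TPM with BRM014, against 2.11, 1.57 and 1.41 TPM with DMSO, in KOPT-K1. In TALL-1 it had 51.6, 45.3 and 55.6 TPM with BRM014, against 20.4, 18.6 and 18.0 TPM with DMSO. The other 8 members of this group were ATP6V0A1, a subunit of the proton pump of vesicles, ATP7A, a copper transporter, VPS37C of the ESCRT-I sorting complex, BSN, a scaffold of the presynaptic zone, TBC1D2, a regulator of RAB7, the ion channel genes TMEM63A and TMEM63B, and SLC66A1, an exporter of cationic amino acids from lysosomes. ATP6V0A1 had 9.48, 7.49 and 8.60 TPM with BRM014, against 0.714, 0.777 and 0.711 TPM with DMSO, in KOPT-K1, and MIR5010, which is listed beside it, had a like pattern. The median 6 h difference of the 10 was 0.98 in Jurkat, 1.35 in CCRF-CEM, 1.16 in KOPT-K1 and 1.24 in TALL-1.

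Cytoskeletal and ciliary genes made up 12 members. CTTN encodes cortactin, which binds branched actin (chr11:70398529-70436575), and it had the largest single difference of all members, 4.31 in CCRF-CEM. It had 41.1, 41.2 and 30.2 TPM with BRM014, against 1.14, 1.16 and 0.530 TPM with DMSO, in that line. In Jurkat it had 44.7, 61.5 and 45.8 TPM with BRM014, against 12.6, 15.9 and 12.9 TPM with DMSO. Jurkat libraries lay above CCRF-CEM libraries in both treatments, and the gap was wider with DMSO on a log scale. CCDC96, a protein of the ciliary axoneme, ARMC2, linked to cilia, C8orf37 and TMEM218, both known from ciliopathies, the centrosomal CEP68 and CEP170, the nuclear envelope linker SYNE1, and the actin regulators FGD6, RND1 and CARMIL3 were also in the group. CCDC96 had 7.55, 9.68 and 8.62 TPM with BRM014, against 1.84, 1.77 and 1.97 TPM with DMSO, in Jurkat. Group medians at 6 h were 1.04 in Jurkat, 1.01 in CCRF-CEM, 1.16 in KOPT-K1 and 1.43 in TALL-1.

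Enzymes of metabolism, glycans and DNA repair were 17 of the members. CD38, a surface enzyme that consumes NAD (chr4:15778328-15853232), started at very different levels in the 4 lines. In TALL-1 it had 158, 167 and 183 TPM with BRM014, against 42.9, 47.7 and 56.4 TPM with DMSO. Jurkat cells had 18.1, 32.4 and 21.1 TPM with BRM014, against 6.27, 9.30 and 6.51 TPM with DMSO. In spite of these starting levels the log2 differences were close, 1.55 in Jurkat, 1.47 in CCRF-CEM, 1.73 in KOPT-K1 and 1.78 in TALL-1. GCNT1, the transferase that starts core 2 branches on O-glycans (chr9:76393869-76507416), had 7.63, 7.73 and 7.83 TPM with BRM014, against 1.34, 0.942 and 1.27 TPM with DMSO, in TALL-1. ERMP1, a metallopeptidase of the endoplasmic reticulum (chr9:5784572-5867091), had 16.2, 18.2 and 18.6 TPM with BRM014, against 3.74, 4.17 and 4.47 TPM with DMSO, in KOPT-K1. Both genes separated the groups fully, as every member did in each line at 6 h. NEIL2, a DNA glycosylase of base excision repair, had 1.88, 2.08 and 1.53 TPM with BRM014, against 0.0532, 0.108 and 0.238 TPM with DMSO, in CCRF-CEM, and 25.0, 25.9 and 25.0 TPM with BRM014, against 13.8, 13.9 and 14.4 TPM with DMSO, in KOPT-K1, so the control level of a member could differ between lines while the groups stayed apart in each. Others of the group were FPGT of fucose salvage, GSTA4 of aldehyde detoxification, POR, the electron donor of cytochrome P450 enzymes, COQ8B of coenzyme Q synthesis, MMAA of vitamin B12 handling, CSAD of taurine synthesis, FANCC of crosslink repair, PFKFB4 of glycolysis control and PGAP2 of GPI anchor remodelling.

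Zinc finger and chromatin genes were 13 members. Symbols of the ZNF series belonged to 9 of the 92 (9.78%), against 2.197% of the 17936 genes tested in Jurkat, a share given without a test. Genes tested in Jurkat, here and in the other shares, passed a filter in that line only. Members had to reach 1 TPM with BRM014 in all 4 lines, so the pools differ. ZNF341, which activates STAT3 transcription (chr20:33731996-33792269), had 25.4, 24.9 and 25.3 TPM with BRM014, against 3.07, 3.08 and 3.23 TPM with DMSO, in TALL-1, and 17.0, 19.1 and 17.2 TPM with BRM014, against 5.47, 5.30 and 5.83 TPM with DMSO, in Jurkat. ZNF25 (chr10:37949573-37976647) had 10.7, 11.2 and 12.3 TPM with BRM014, against 2.70, 2.43 and 2.87 TPM with DMSO, in KOPT-K1. BICRAL, the ncBAF subunit and so a part of the family of complexes that BRM014 inhibits, differed by 1.47, 1.77, 1.62 and 1.61 in Jurkat, CCRF-CEM, KOPT-K1 and TALL-1. It had 32.5, 31.0 and 30.3 TPM with BRM014, against 7.63, 8.65 and 9.10 TPM with DMSO, in CCRF-CEM. The 4 lines started at like levels of BICRAL, between 7.63 and 13.5 TPM in DMSO libraries. HDAC6, a deacetylase of tubulin, PRDM10 and the histone chaperone partner HIRIP3 were also in this group.

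**Figure D2:**
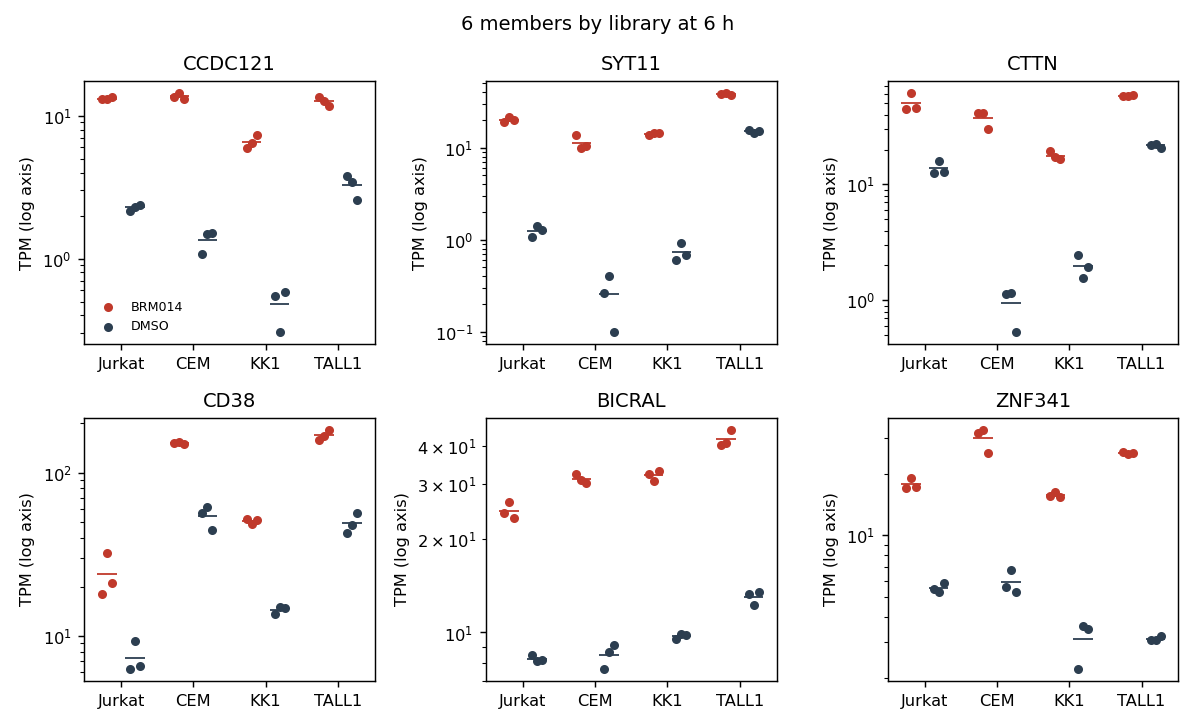
TPM (log axis) of 6 members in every 6 h library of 4 lines, with BRM014 (red) left of DMSO (dark blue); points are libraries, 3 a group, and lines are means. No group pair overlaps, and CTTN and SYT11 start more than 10-fold higher in TALL-1 (TALL1) DMSO cells than in CCRF-CEM (CEM) DMSO cells.

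Genes of cell death and signalling were 7 members. CFLAR, the inhibitor of caspase-8 known as c-FLIP (chr2:201116164-201176687), had 12.6, 13.1 and 10.6 TPM with BRM014, against 3.76, 4.08 and 3.57 TPM with DMSO, in CCRF-CEM. BIRC2, the ubiquitin ligase cIAP1, had 52.4, 55.8 and 54.2 TPM with BRM014, against 21.8, 23.1 and 19.6 TPM with DMSO, in TALL-1. RSAD2, the interferon-induced antiviral protein viperin, had 29.4, 32.3 and 30.9 TPM with BRM014, against 13.5, 14.2 and 15.5 TPM with DMSO, in KOPT-K1. CFLAR, BIRC2 and RSAD2, like ATP6V0A1 among the transport genes, were picked for their known roles after their values were seen. The group also held PIK3R3, a regulatory subunit of PI3 kinase, with its readthrough, the ubiquitin-conjugating enzyme UBE2D4 and the PDZ protein TAX1BP3, and its median difference was 0.76 in Jurkat, 1.06 in CCRF-CEM, 1.08 in KOPT-K1 and 1.34 in TALL-1.

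Non-coding RNAs, pseudogenes and microRNA entries were 24 members. Symbols that end in the antisense or divergent transcript suffix belonged to 11 of the 92 (12.0%), against 3.85% of the genes tested in Jurkat, a share given without a test. Among them, CFLAR-AS1, ZNF341-AS1 and SYP-AS1 each overlap or adjoin a member gene, so their values are not independent of it. ARHGAP27P2, a transcribed pseudogene (chr17:68198660-68200302), had 48.3, 49.6 and 49.5 TPM with BRM014, against 3.75, 3.46 and 3.40 TPM with DMSO, in TALL-1, and its neighbour LOC105371870 (chr17:68165403-68194676) had 16.7, 14.8 and 18.7 TPM with BRM014, against 1.83, 1.59 and 1.55 TPM with DMSO, in the same line. LOC105370700 (chr14:106193827-106208423) had 379, 319.5 and 382 TPM with BRM014, against 146, 141 and 140.2 TPM with DMSO, in TALL-1, the highest level of the 24. UBE2D3-AS1 (chr4:102828055-102844106) had 9.22, 11.7 and 9.46 TPM with BRM014, against 1.98, 1.70 and 1.22 TPM with DMSO, in CCRF-CEM. All 4 separated the groups in every line, as every member did at 6 h, and no function is assigned to the LOC entries here.

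In Jurkat cells kept with BRM014 for 8 d, most members were still higher than in DMSO cells, and a few had passed below it. At 8 d 83 of 92 were higher and 2 lower (limma, Benjamini-Hochberg adjusted p under 0.05), against 36.9% and 23% of all 17936 genes tested. The members' median difference was 0.80 and that of all genes 0.08. Every BRM014 library lay above every DMSO library in 81 members, against 36.3% of all genes tested. A difference of at least 0.7 was found in 54 members, a share not counted over all genes. At 8 d 27 members differed by as much as or more than in Jurkat at 6 h. The 6 h values chose the members and so lean high, and the times were not compared by a test. The 8 d libraries took no part in the choice of members, though the cell line did. When libraries were rescaled to the same median ratio, 79 members were higher and 2 lower at 8 d, and over all genes 5302 were higher and 5503 lower, against 6612 and 4127 without rescaling.

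CD38 had 99.9, 102 and 104 TPM with BRM014, against 16.8, 10.1 and 8.30 TPM with DMSO, at 8 d. The difference was 3.07 ± 0.22 (SE), adjusted p = 2.25e-10, where it had been 1.55 at 6 h. SYT11 had 15.5, 14.7 and 16.9 TPM with BRM014, against 0.861, 0.907 and 0.991 TPM with DMSO, a difference of 3.12 ± 0.08 (SE), adjusted p = 1.27e-17. CTTN had 81.8, 79.0 and 80.9 TPM with BRM014, against 11.8, 9.16 and 7.73 TPM with DMSO, a difference of 2.97 ± 0.11 (SE), adjusted p = 7.41e-15. These genes showed the 3 largest differences of the 92 at 8 d, and their groups did not overlap.

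Several members held a smaller rise. CCDC121 had 8.42, 9.30 and 8.60 TPM with BRM014, against 1.68, 1.70 and 1.83 TPM with DMSO, a difference of 1.84 ± 0.08 (SE), adjusted p = 6.07e-14. BICRAL had 27.9, 31.1 and 29.8 TPM with BRM014, against 12.7, 10.2 and 9.88 TPM with DMSO, a difference of 1.37 ± 0.07 (SE), adjusted p = 7.18e-13. ZNF341 had 10.4, 9.48 and 9.78 TPM with BRM014, against 5.18, 4.86 and 4.79 TPM with DMSO, a difference of 0.87 ± 0.06 at 8 d beside 1.52 at 6 h. LOC105371870 no longer separated the groups, with 3.51, 4.15 and 3.54 TPM with BRM014, against 3.51, 3.12 and 3.73 TPM with DMSO and a difference of 0.09 (adjusted p = 0.361). Its neighbour ARHGAP27P2 was higher at 0.40, beside 1.77 at 6 h. By role, all 13 zinc finger and chromatin genes, all 12 cytoskeletal and ciliary genes, all 10 vesicle and transport genes and all 7 cell death and signalling genes were higher at 8 d, as were 15 of 17 enzymes and 19 of 24 non-coding members, against 83 of all 92 members and 36.9% of all genes. Of 9 members of other or unnamed role 7 were higher at 8 d. Both members that were lower at 8 d were enzymes, PFKFB4 and PGAP2. PFKFB4 had 5.42, 5.13 and 5.39 TPM with BRM014, against 7.03, 6.76 and 5.84 TPM with DMSO, a difference of -0.25 ± 0.10 (SE), adjusted p = 0.0272, and PGAP2 had 21.7, 21.5 and 22.0 TPM with BRM014, against 24.2, 23.7 and 23.2 TPM with DMSO, a difference of -0.12 ± 0.04 (SE), adjusted p = 0.0252. The count of lower members at 8 d depended on single libraries. It was 0 without BRM014 replicate 2 or without DMSO replicate 1 or 2, and 1 without BRM014 replicate 1.

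**Figure D3:**
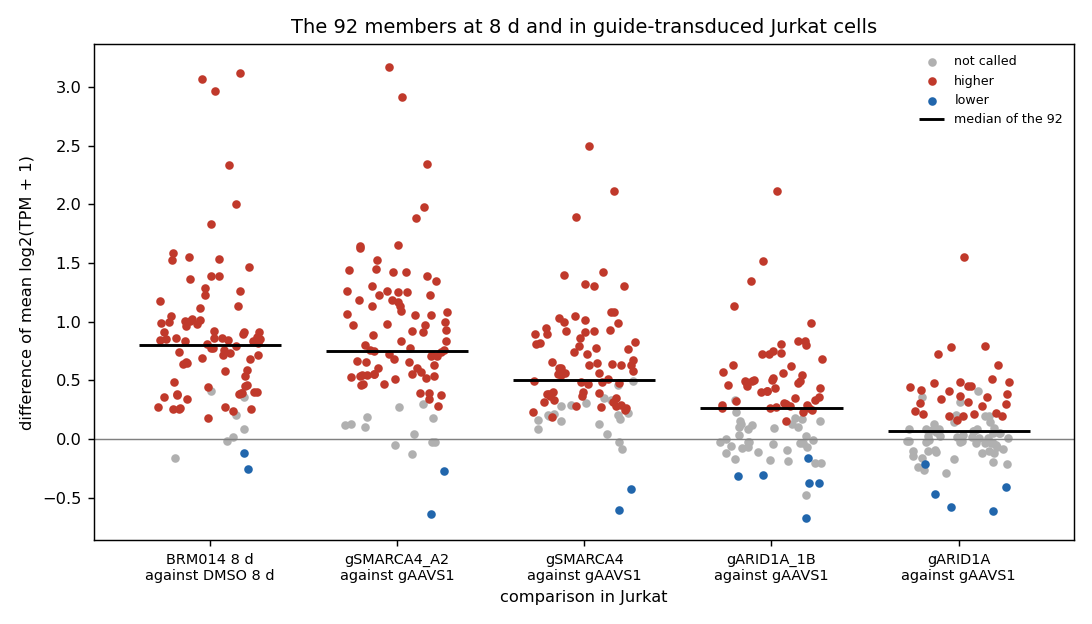
Log2(TPM + 1) differences of the 92 members (points) in 5 Jurkat comparisons, each of 3 libraries against 3; red marks members called higher, blue lower and grey not called (limma, adjusted p under 0.05), and black lines are medians. Medians were 0.80 at 8 d, 0.75 for gSMARCA4_A2, 0.50 for gSMARCA4, 0.27 for gARID1A_1B and 0.07 for gARID1A; the 4 guide comparisons share the gAAVS1 libraries.

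In the guide groups the members were higher most often where the ATPases were targeted. The share of all genes called higher was also largest with those guides. With gSMARCA4_A2, 78 members were higher and 2 lower than with gAAVS1 (background 40.9% and 21.1%), with a median difference of 0.75 against 0.11 over all genes. With gSMARCA4, 70 were higher and 2 lower (background 25.1% and 15.8%), with a median of 0.50 against 0.04. Targeting the ARID1 subunits gave fewer calls: with gARID1A_1B 50 were higher and 6 lower (background 17% and 23.1%; median 0.27 against -0.03), and with gARID1A 30 were higher and 5 lower (background 7.72% and 13.2%; median 0.07 against -0.03). All 4 guide groups were set against the same gAAVS1 libraries, so their values are given side by side. Rescaling to the same median ratio gave 77 and 5 for gSMARCA4_A2, 69 and 2 for gSMARCA4, 53 and 5 for gARID1A_1B, and 35 and 4 for gARID1A. Over all genes it gave 5070 higher and 6065 lower for gSMARCA4_A2, against 7337 and 3793 without it, 3797 and 3648 for gSMARCA4, against 4507 and 2831 without it, and 1993 and 1956 for gARID1A, against 1385 and 2363 without it. Limma-voom on recovered reads gave 53 members higher and 5 lower for gARID1A_1B, and 4161 and 3641 over all genes, against 3046 and 4136 by limma. With rescaling the median of all genes for gSMARCA4_A2 was -0.03 and the members' median 0.60.

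CD38 had 89.5, 81.8 and 74.3 TPM with gSMARCA4_A2, 39.5, 30.5 and 29.6 TPM with gSMARCA4, 25.2, 26.8 and 23.9 TPM with gARID1A_1B and 18.4, 14.1 and 12.4 TPM with gARID1A, against 9.71, 8.03 and 6.94 TPM with gAAVS1. No guide group overlapped the control, and the differences from it were 3.17 ± 0.22 (SE), adjusted p = 1.83e-10, 1.89 ± 0.22 (SE), adjusted p = 6.95e-07, 1.52 ± 0.22 (SE), adjusted p = 1.17e-05, and 0.79 ± 0.22 (SE), adjusted p = 0.0126, in that order of guides. The gARID1A call was lost without gAAVS1 replicate 3 or gARID1A replicate 1 (adjusted p = 0.0557 and 0.0659). CTTN kept the same order: 87.0, 86.5 and 79.8 TPM with gSMARCA4_A2, 68.4, 60.3 and 60.5 TPM with gSMARCA4, 49.4, 49.6 and 44.9 TPM with gARID1A_1B and 32.3, 32.3 and 32.2 TPM with gARID1A, against 10.7, 10.8 and 9.52 TPM with gAAVS1. Its smallest guide difference was 1.55 ± 0.11 (SE), adjusted p = 2.69e-09, for gARID1A.

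SYT11 split the ATPase guides from the ARID1 guides more sharply. It had 14.7, 16.0 and 14.61 TPM with gSMARCA4_A2 and 12.6, 12.9 and 12.6 TPM with gSMARCA4. It had 3.27, 3.70 and 3.92 TPM with gARID1A_1B and 1.51, 2.2 and 2.17 TPM with gARID1A, against 2.35, 2.13 and 2.02 TPM with gAAVS1. The gARID1A values overlapped the control (difference -0.10, adjusted p = 0.412), and gSMARCA4_A2 exceeded gARID1A_1B by 1.80 ± 0.08 (SE), adjusted p = 3.37e-13. BICRAL had 31.8, 32.5 and 29.8 TPM with gSMARCA4_A2, 21.5, 22.2 and 20.7 TPM with gSMARCA4, 15.1, 15.7 and 14.0 TPM with gARID1A_1B and 12.1, 10.6 and 10.3 TPM with gARID1A, against 10.5, 10.2 and 10.1 TPM with gAAVS1. It rose with the first 3 of these guides and its gARID1A values overlapped the control (difference 0.09, adjusted p = 0.438). CCDC121 rose with all 4, by 1.65, 1.32, 0.75 and 0.49 for gSMARCA4_A2, gSMARCA4, gARID1A_1B and gARID1A.

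GCNT1 and ERMP1 had other orders. GCNT1 had 12.4, 12.2 and 11.5 TPM with gSMARCA4_A2, 4.69, 4.48 and 4.15 TPM with gSMARCA4, 8.21, 8.49 and 7.68 TPM with gARID1A_1B and 5.67, 4.25 and 3.89 TPM with gARID1A, against 3.21, 2.94 and 3.33 TPM with gAAVS1. The groups with guides to a pair of paralogues stood above those with guides to 1 of them, by 1.26 ± 0.10 (SE), adjusted p = 6.05e-09, for gSMARCA4_A2 over gSMARCA4, and by 0.72 ± 0.10 (SE), adjusted p = 1.47e-05, for gARID1A_1B over gARID1A. ERMP1 had 23.8, 24.4 and 22.8 TPM with gSMARCA4_A2, 21.7, 23.9 and 22.7 TPM with gSMARCA4, 21.8, 22.7 and 21.5 TPM with gARID1A_1B and 13.6, 14.1 and 14.0 TPM with gARID1A, against 7.82, 8.62 and 7.69 TPM with gAAVS1. Its first 3 groups were close, with a difference of 0.05 between gSMARCA4_A2 and gSMARCA4 (adjusted p = 0.669) and 0.10 between gSMARCA4_A2 and gARID1A_1B (adjusted p = 0.337). NEIL2 rose by 1.34, 1.30, 0.99 and 0.63 for gSMARCA4_A2, gSMARCA4, gARID1A_1B and gARID1A, and LOC105370700 by 1.98, 1.08, 0.84 and 0.79.

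**Figure D4:**
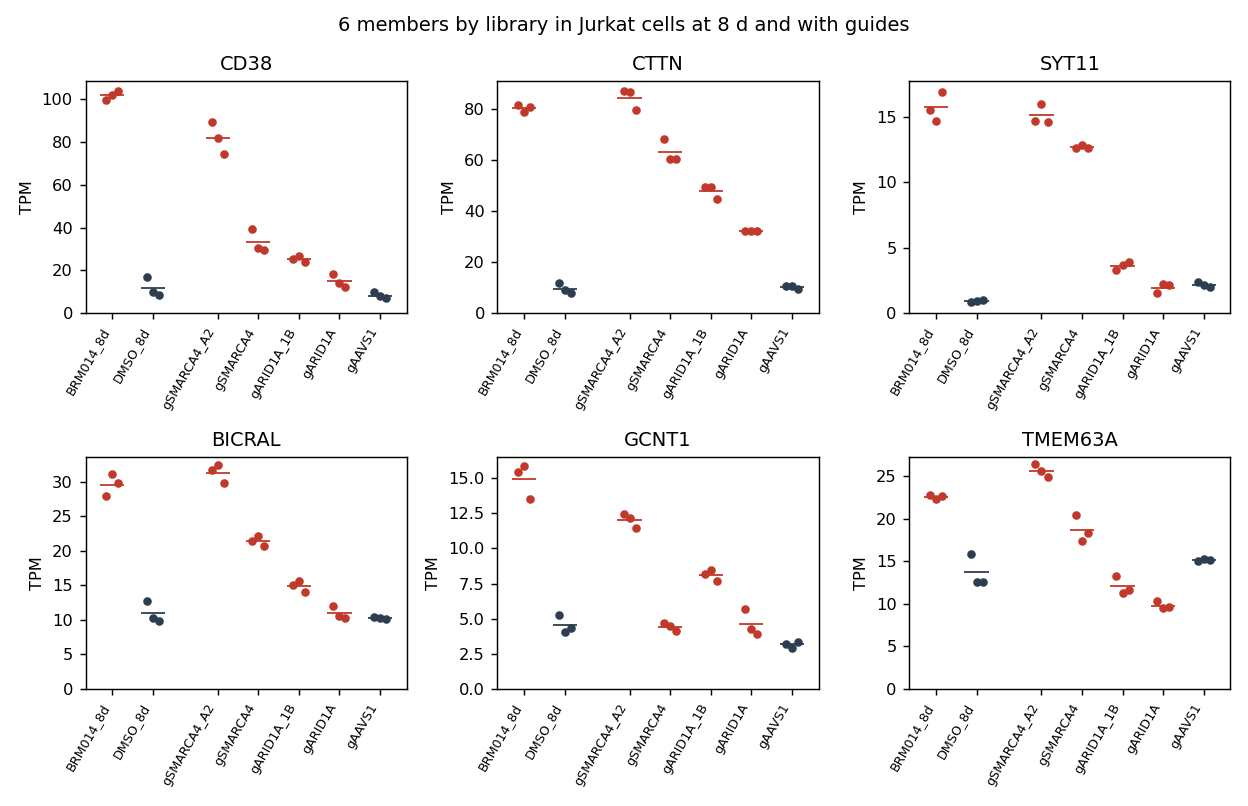
TPM of 6 members in every Jurkat library at 8 d and with guides; points are libraries, 3 a group, lines are means, red marks BRM014 or targeting guides and dark blue their control (DMSO or gAAVS1) to the right. CD38, CTTN and BICRAL step down from gSMARCA4_A2 to gARID1A, SYT11 is near the gAAVS1 level with gARID1A, and TMEM63A lies above gAAVS1 with both ATPase guide groups and below it with both ARID1 guide groups.

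Adding the second paralogue was tested between guide groups that do not involve gAAVS1. Against gSMARCA4, gSMARCA4_A2 had 44 members higher and 3 lower (background 26.5% and 12.3%), with a median of 0.24 against 0.07 over all genes; with libraries rescaled to the same median ratio the counts were 28 and 7, and over all genes 2753 and 4331, against 4751 and 2202. CD38 differed most, by 1.28 ± 0.22. Against gARID1A, gARID1A_1B had 29 members higher and 1 lower (background 10.3% and 10.6%; median 0.12 against -0.00). With mitochondrial genes left out the counts were 37 and 1, and over all genes 2777 and 1411, against 1854 and 1895 with them; limma-voom gave 36 and 1, and 2774 and 1863 over all genes. The higher count was 19 without gARID1A replicate 2 or without gARID1A_1B replicate 1. Between the pairs, gSMARCA4_A2 exceeded gARID1A_1B in 74 members and was lower in 0 (background 43.2% and 14%; median 0.53 against 0.16 over all genes; limma, and 1 lower by limma-voom); rescaling lowered the median of all genes to -0.01 and that of the members to 0.35, with 63 higher and 2 lower, and over all genes 4335 and 5225, against 7740 and 2510. Limma-voom gave 71 members higher, and 6609 genes higher and 3584 lower in all. Without rescaling, the difference pointed to gSMARCA4_A2 in 88 of the 92. The share of all genes that did so was not counted, and their median of 0.16 without rescaling pointed the same way.

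By role, all 10 vesicle and transport genes were higher with gSMARCA4_A2 and with gSMARCA4, and 6 were higher and 2 lower with gARID1A_1B. Of 12 cytoskeletal and ciliary genes 11, 10, 5 and 4 were higher with gSMARCA4_A2, gSMARCA4, gARID1A_1B and gARID1A, and 0 were lower. Of 13 zinc finger and chromatin genes the counts were 12, 11, 7 and 3, and of 7 cell death and signalling genes 7, 6, 5 and 1. Enzymes had 13, 15, 13 and 10 of 17, and non-coding members 17, 12, 9 and 5 of 24. Of 9 members of other or unnamed role 8, 6, 5 and 3 were higher. Non-coding members called lower numbered 2, 2, 2 and 3. With gARID1A_1B 1 enzyme and 1 cell death and signalling gene were lower. With gARID1A 1 cell death and signalling gene and 1 vesicle and transport gene were lower. In the same order, 78, 70, 50 and 30 of all 92 members were higher, and 40.9%, 25.1%, 17% and 7.72% of all genes. CFLAR rose with gSMARCA4_A2 (1.42 ± 0.09 (SE), adjusted p = 2.15e-11), gSMARCA4 (0.86 ± 0.09) and gARID1A_1B (0.41 ± 0.09), and its antisense neighbour CFLAR-AS1, whose reads cannot be separated from it in Jurkat, had 1.26, 0.91 and 0.50.

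Other members named by the same rule were also higher at 8 d, and their guide values differed more. ZNF25 was higher by 1.12 at 8 d and by 1.26, 1.05, 0.72 and 0.41 with gSMARCA4_A2, gSMARCA4, gARID1A_1B and gARID1A. SYP was higher by 1.02 at 8 d and by 1.23, 0.92, 0.50 and 0.34 with the same guides. Both genes passed the test in each of these comparisons. UBE2D3-AS1 had 3.71, 3.62 and 4.06 TPM with BRM014, against 1.54, 1.45 and 1.62 TPM with DMSO, at 8 d (0.92 ± 0.12 (SE), adjusted p = 6.25e-07), and a difference of 0.04 with gARID1A (adjusted p = 0.871). CCDC96 had 6.27, 5.84 and 6.45 TPM with BRM014, against 2.00, 2.21 and 2.32 TPM with DMSO, at 8 d (1.18 ± 0.08 (SE), adjusted p = 2.69e-11), and a difference of -0.02 with gARID1A (adjusted p = 0.915). LOC105369725 had 5.77, 7.26 and 4.54 TPM with BRM014, against 0.373, 0.485 and 0.182 TPM with DMSO, at 8 d (2.34 ± 0.21 (SE), adjusted p = 6.11e-09). With gARID1A_1B it was higher by 0.62 (adjusted p = 0.0251), a call lost without gAAVS1 replicate 2 or 3 or without gARID1A_1B replicate 1 or 2. LOC105379243, which lies within 5000 bases of NEIL2, was at 1.53 at 8 d and 1.26 with gSMARCA4_A2.

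A few members went below gAAVS1. LOC105371870 had 2.56, 3.01 and 2.69 TPM with gSMARCA4_A2, 2.73, 2.98 and 2.84 TPM with gSMARCA4, 2.67, 2.75 and 2.57 TPM with gARID1A_1B and 2.71, 2.90 and 2.82 TPM with gARID1A, against 4.53, 5.37 and 4.67 TPM with gAAVS1. All 12 guide libraries lay below the 3 controls, and the differences were -0.64, -0.60, -0.67 and -0.62, with adjusted p between 4.63e-07 and 6.81e-06. The neighbouring ARHGAP27P2 differed by -0.27, -0.43, -0.37 and -0.41, and at 8 d it was higher; its gSMARCA4_A2 call was lost without gAAVS1 replicate 1 or 3 or without gSMARCA4_A2 replicate 1. The pair lies within 5000 bases and counts as 1 locus.

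TMEM63A, an ion channel opened by membrane stretch (chr1:225840556-225882380), moved both ways. It had 26.5, 25.6 and 25.0 TPM with gSMARCA4_A2 and 20.4, 17.4 and 18.3 TPM with gSMARCA4. It had 13.2, 11.3 and 11.7 TPM with gARID1A_1B and 10.3, 9.49 and 9.64 TPM with gARID1A, against 15.1, 15.2 and 15.2 TPM with gAAVS1. The ATPase guide groups lay wholly above the control and the ARID1 groups wholly below it, with differences of 0.72 ± 0.08 and 0.28 ± 0.08 against -0.31 ± 0.08 and -0.58 ± 0.08, and gSMARCA4_A2 exceeded gARID1A_1B by 1.03 ± 0.08 (SE), adjusted p = 1.67e-09. Its gSMARCA4 call was lost without gSMARCA4 replicate 1 (0.22, adjusted p = 0.0610). TAX1BP3 showed the same arrangement, with 0.47 and 0.36 for gSMARCA4_A2 and gSMARCA4, and -0.32 and -0.22 for gARID1A_1B and gARID1A, and gSMARCA4_A2 over gARID1A_1B was 0.79 ± 0.07 (SE), adjusted p = 5.93e-09. The gARID1A call of TAX1BP3 was lost under rescaling, with only its own groups in the fit, and without gAAVS1 replicate 1 or 3 or gARID1A replicate 2 or 3, with adjusted p between 0.0510 and 0.171 in these. SLC66A1 with gARID1A_1B (-0.16, adjusted p = 0.0454) and AZIN1-AS1 with gARID1A (-0.47, adjusted p = 0.0482) were calls at the edge of the threshold, and many of the alternatives ended them. PFKFB4, which sets the fructose 2,6-bisphosphate level, was lower with gARID1A_1B by -0.38 ± 0.10 (SE), adjusted p = 0.00325.

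Some members start beside a gene on the other strand. In GENCODE release 29, 18 of 66 protein-coding members that could be placed (27.3%) had the 5′ end of a protein-coding gene on the opposite strand within 1000 bases of their own, against 17.4% of 12626 tested protein-coding genes; the shares are a description. At 6 h the median difference of these 18 members and of their partners was 1.01 against 0.16 in Jurkat, 1.18 against 0.23 in CCRF-CEM, 0.99 against 0.20 in KOPT-K1 and 1.27 against 0.04 in TALL-1, where the rule fixed the members' side only. The partners' differences ran between -0.22 and 1.15. SYT11 starts 109 bases from GON4L, whose differences were 0.22, 0.22, 0.19 and 0.23 in Jurkat, CCRF-CEM, KOPT-K1 and TALL-1. CCDC121 and GPN1 start 765 bases apart, and GPN1 differed by 0.11, 0.24, 0.11 and 0.14. FPGT and LRRIQ3 start 25 bases apart, and there the partner differed more, by 0.91, 0.75, 0.44 and 1.15. At 8 d 8 of 15 tested partners were higher and 0 lower, against 16 of the 18 members higher, and with gSMARCA4_A2 9 partners were higher and 1 lower, against 16 of the 18 members higher. Of all genes, 36.9% were higher and 23% lower at 8 d, and 40.9% and 21.1% with gSMARCA4_A2. Reads of the 2 strands cannot be told apart in Jurkat where such genes overlap.

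**Figure D5:**
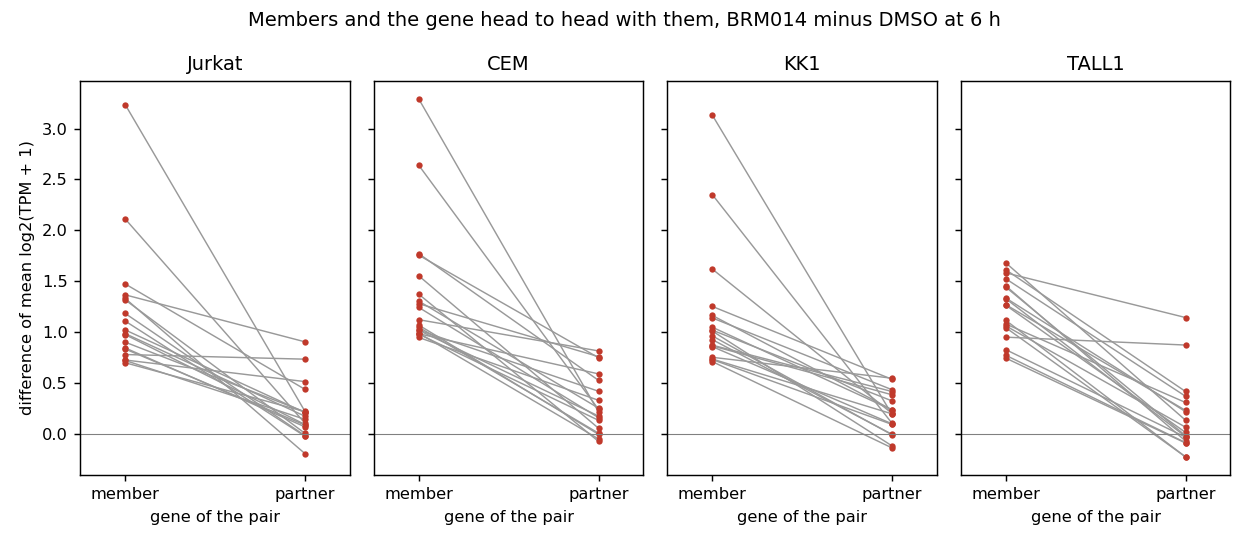
Log2(TPM + 1) difference, BRM014 minus DMSO at 6 h, of 18 protein-coding members (left) and of the gene whose 5′ end lies within 1000 bases on the other strand (right), joined by a line, in 4 lines. Partner medians were 0.16, 0.23, 0.20 and 0.04 in Jurkat, CCRF-CEM (CEM), KOPT-K1 (KK1) and TALL-1 (TALL1); members are at 0.7 or above by the rule.

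The median gene length of the members was 3840 bases, against 3312 over the genes tested. The members' median level in Jurkat DMSO cells at 6 h was 6.61 TPM, against 11.8 TPM. These DMSO libraries took part in the choice, which favours low DMSO values, so the lower level is no independent property of the members. Other gene lists were counted in the same Jurkat comparisons, in which 36.9% of all genes were higher and 23% lower at 8 d, and 40.9% and 21.1% with gSMARCA4_A2. Their part in the members' values was not tested. Of 30 BAF subunit genes tested, 19 were higher and 6 lower at 8 d, and 15 were higher and 7 lower with gSMARCA4_A2. The list's median was 0.18 at 8 d, against 0.08 over all genes, and 0.11 with gSMARCA4_A2, where that of all genes was also 0.11. BICRAL itself is on that list and was its largest increase in both. BCL11B was the largest decrease at 8 d, at -1.37. Of 28 axonemal and ciliary genes, 9 were higher and 6 lower at 8 d and 13 were higher and 5 lower with gSMARCA4_A2, with medians of -0.01 and 0.13, near those of all genes. Of 30 cell cycle genes 0 were higher and 22 lower at 8 d (limma), with CDC6 at -0.93, and of 28 T cell identity genes 7 were higher and 17 lower, with TRAT1 at -4.11. Of 24 cholesterol synthesis genes 1 was higher and 22 were lower at 8 d, of 23 p53 targets 15 were higher and 4 lower, while among 27 AP-1 and other immediate early genes 14 were higher and 4 lower.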

How the data were processed

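The members and the gene lists were chosen with earlier results of these data known. The authors deposited TPM per gene and library in 2 tables, 1 for Jurkat and 1 for the other lines, with a gene length column; the tables were normalized separately and every test stayed within the Jurkat table. The submitters' processing notes name HISAT2 2.2.1, featureCounts 2.0.3, DESeq2 1.38.2 and the hg38 build, with no settings. TPM times gene length gave whole reads for 100% of values within 0.01, which gave the sums of reads counted in genes.

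The 6 h choice used means of log2(TPM + 1) over 3 libraries a group. Jurkat comparisons were fitted in 1 limma 3.58.1 model (R 4.3.3; eBayes with trend and robust) on log2(TPM + 1) of 27 libraries in 9 groups, over 17936 genes of at least 1 TPM in at least 3 libraries, with 18 residual degrees of freedom. Benjamini-Hochberg adjustment ran over all genes tested within each comparison, and an adjusted p under 0.05 was called. Fold changes on this scale understate the change of low genes. The fit was tested on simulated data. Promoters and gene positions came from RefSeq tables and partners from GENCODE, handled with Python 3.11.15.

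Genes named with values were the 15 with the highest smallest difference at 6 h, up to 10 members called in the same direction in at least 4 of 5 Jurkat comparisons by mean size, and up to 8 called lower in any; other members named with values, and the head-to-head partners, were picked after their values were seen. Alternatives changed the pseudocount, the filter, the scaling, the moderation, the libraries in the fit, the replicate block and the tool (limma-voom on the recovered reads), and left out each library in turn. Counts and medians cover all 92 members, of which 1 is not reported by name here. Replicates of 1 group differed by 2.59 to 48.0 times the sampling noise (chi-square per degree of freedom), so none was counted as a repeat deposit.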

Additional observations from a re-analysis of the deposited data

Results flagged for a closer look

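PFKFB4 and PGAP2 were members by their 6 h values and lay below DMSO at 8 d in Jurkat. PFKFB4, an enzyme that sets fructose 2,6-bisphosphate, differed by -0.25 at 8 d, and PGAP2, which acts in GPI anchor remodelling, by -0.12. In both genes each of the 3 BRM014 libraries at 6 h lay above each DMSO library, as in every member. At 8 d each of the 3 BRM014 libraries lay below each DMSO library, a share not counted over all genes. Both 8 d calls were lost without some single libraries. The adjusted p (limma) was then between 0.0763 and 0.102 for PFKFB4 and between 0.0509 and 0.0746 for PGAP2. The difference between the times was not tested, because the 6 h values chose the genes.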

How the results depend on the processing

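The number of genes that met the rule was 92. With rescaling to the same median ratio it was 78, all among the 92. It was 62 at a threshold of 0.8 and 139 at a threshold of 0.6. It was 150 with a pseudocount of 0.1, 100 with mitochondrial genes left out, 60 with at least 5 TPM, and 84 to 99 without 1 library. Without CEM replicate 3 of both groups, a setting added after seeing the data, it was 93, of which 91 were among the 92. Without 1 library, members higher numbered 79 to 81 at 8 d, 77 to 80 with gSMARCA4_A2, 67 to 72 with gSMARCA4, 45 to 50 with gARID1A_1B, 21 to 25 with gARID1A, 35 to 44 for gSMARCA4_A2 over gSMARCA4, 19 to 28 for gARID1A_1B over gARID1A and 70 to 75 for gSMARCA4_A2 over gARID1A_1B. Counts over all genes moved too. At 8 d 5972 to 6831 genes were higher without 1 library, against 6612 with all. With gARID1A 952 to 1352 were higher, against 1385. Members lower numbered 0 to 2 at 8 d, 1 to 3 with gSMARCA4_A2, 2 to 2 with gSMARCA4, 5 to 6 with gARID1A_1B, 3 to 4 with gARID1A, 2 to 3 for gSMARCA4_A2 over gSMARCA4, 0 to 2 for gARID1A_1B over gARID1A and 0 to 0 for gSMARCA4_A2 over gARID1A_1B. With only the 2 groups in the fit, members lower numbered 1 at 8 d and 0 for gARID1A_1B over gARID1A. Rescaling to the same median ratio gave 5 lower with gSMARCA4_A2, 28 higher and 7 lower for gSMARCA4_A2 over gSMARCA4, and 2 lower for gSMARCA4_A2 over gARID1A_1B, where limma-voom gave 1. A filter of 5 TPM gave 2 lower for gARID1A_1B over gARID1A. With the replicate block, members lower numbered 10 with gARID1A_1B and 4 for gARID1A_1B over gARID1A. Over all genes 4491 and 2402 were then lower, against 4136 and 1895 without the block. The causes were not tested.

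Same-numbered replicates deviated together weakly or not at all. Their deviations correlated between -0.08 and 0.22, and no comparison had each pair above 0.1. At 8 d 0 of 3 samples correlated best with their own number. For gARID1A_1B against gAAVS1 3 of 3 did, and 2 of 3 in each other guide comparison. Calls over all genes rose with the replicate block in every comparison, for gARID1A to 1759 higher and 2799 lower, against 1385 and 2363 without it. With the replicate block, members higher numbered 84 at 8 d, 78 with gSMARCA4_A2, 76 with gSMARCA4, 52 with gARID1A_1B, 33 with gARID1A, 49 for gSMARCA4_A2 over gSMARCA4, 34 for gARID1A_1B over gARID1A and 75 for gSMARCA4_A2 over gARID1A_1B. In the same order, 6838, 7557, 4903, 3323, 1759, 5200, 2275 and 8070 of all genes were higher. Without the block these were 6612, 7337, 4507, 3046, 1385, 4751, 1854 and 7740. No called value of a named gene changed sign under any alternative run. Members near 1 TPM rest on few reads, and 3 libraries a group limit what small differences can be called.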
